A study of Mus musculus with 13 samples.

Results

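High-fat feeding was compared with low-fat chow in P2X7 knockout mice, gene by gene, in epididymal white adipose tissue, which lies inside the abdomen beside the testis. The comparison took the arrays titled as P2X7-/- fat, 4 after high-fat diet and 3 after chow, which are 7 of the 13 arrays in the series. It covered the 18820 genes read by a probe set that names 1 gene, and the probe set with the highest mean stood for a gene with several. The knockout mice were of the strain B6.129P2-P2rx7tm1Gab/J, had 7 generations of backcrossing to B6 and were bred by the submitters. Wild-type C57/BL6 males, with 3 arrays on chow and 3 on high-fat diet, served to compare the response and to estimate the spread. All mice were 18 weeks old. They had eaten chow with 13% of its energy as fat or the high-fat diet D12492 with 60%, starting at 6 weeks of age and lasting 12 weeks. The tm1Gab allele is carried in every cell, so the knockout is not limited to fat or to immune cells. The labels do not state that knockout and wild-type mice were littermates, or that 1 array stands for 1 animal. The p-values therefore rest on the spread between samples, which may be technical.

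P2X7 is a cation channel that extracellular ATP opens, and macrophages carry much of it. Its opening lets potassium leave the cell, which is a known trigger for the NLRP3 inflammasome, the complex in which the adaptor ASC brings caspase-1 to cut pro-interleukin-1β. In obese visceral fat, macrophages gather around dying fat cells, take up their lipid in lysosomes and divide in place, while the remaining fat cells lose insulin-responsive glucose uptake. The study design asks how gene expression responds to the diet with and without the channel.

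The deposited values are RMA log2 values, so a difference of 1 is a 2-fold difference. Medians over genes lay between 6.63 and 6.68 on the knockout arrays. Arrays of knockout mice on 1 diet correlated across genes at r of 0.9958 to 0.9975, and arrays of different diets at 0.9732 to 0.9839. The first principal component of the 7 arrays held 81.4% of their variance, with chow arrays at -42.3 to -35.6 and high-fat arrays at 20.9 to 32.9. The high-fat array nearest to chow was replicate 1. Replicate 2 on high-fat diet stood apart in lymphocyte genes, replicate 2 on chow was lowest in many macrophage genes, and replicate 1 on chow was highest in interferon-stimulated genes. The results that rest on these arrays are given with their values. As a check of the tissue, adiponectin (Adipoq), the hormone made by fat cells, read 12.51, 12.51 and 12.54 on chow and 12.01, 11.76, 11.93 and 11.94 on high-fat diet, far above the array medians. The means over 7 epididymis genes (3.26 to 3.70) and 8 testis genes (3.84 to 4.02) lay near the bottom of the scale.

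With an adjusted p under 0.05 in limma, adjusted over all 18820 genes by Benjamini-Hochberg, 2721 genes rose (14.5%) and 3708 fell (19.7%) in knockout mice on the high-fat diet, 6429 (34.2%) in all. Falls were more numerous and smaller, with a median of -0.43 against 0.58 for the rises, on the log2 scale. At least 1.5-fold rises numbered 1335 (7.09%) and at least 1.5-fold falls 1139 (6.05%), at least 4-fold changes 137 and 33, and at least 8-fold changes 25 and 5. For 8102 genes (43%) the 4 high-fat values did not overlap the 3 chow values. The median change over all genes was -0.06. Counts within a list below stand beside these shares of all genes: 14.5% rose, 19.7% fell and 43% had no overlap.

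**Figure D1:**
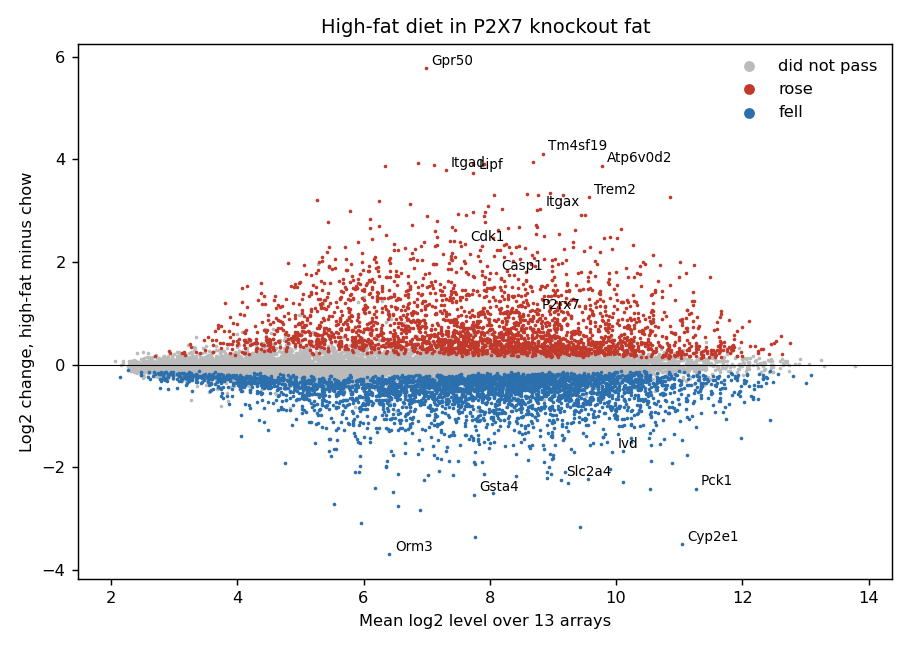
Log2 change on high-fat diet in knockout mice (4 arrays minus 3 arrays, vertical axis) against the mean log2 level over all 13 arrays (horizontal axis) for 18820 genes, with the 2721 rises, the 3708 falls and the other genes in separate colours and some of the genes described labelled. The largest rises reach 5.78 and the largest falls -3.70.

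The largest rise was that of Gpr50, a melatonin-receptor-related orphan receptor. Gpr50 read 4.92, 3.33 and 4.37 on chow and 10.48, 9.33, 10.03 and 10.08 on high-fat diet, a change of 5.78 ± 0.48 (SE; 54.8-fold, limma adjusted p of 1.23e-06). The chow values varied more among themselves than the high-fat values did, with the chow low in replicate 2, and the diets were still far apart. Several of the other large rises are genes of phagocytes. Itgad, the integrin chain CD11d of macrophages in lipid-rich tissue, read 5.79, 5.06 and 5.44 on chow and 9.47, 8.88, 9.31 and 9.21 on high-fat diet (3.79 ± 0.21). Atp6v0d2, a proton-pump subunit that macrophages and osteoclasts share, read 8.50, 7.01 and 8.54 against 11.75, 11.92, 11.94 and 11.93 (3.87 ± 0.43, 14.6-fold). Again replicate 2 on chow was the low array. The largest rises were drawn from genes without overlap between the diets, so its absence there is no result. Tm4sf19, a membrane protein of giant cells and osteoclasts, changed by 4.11 ± 0.35, and the B-cell and macrophage receptor Cd72 by 3.94 ± 0.26. Htr2b, a serotonin receptor, read 5.07, 4.31 and 5.23 against 8.50, 9.14, 8.69 and 8.84 (3.92 ± 0.22). Rgs1, which dampens G-protein signals in immune cells, rose by 3.91 ± 0.35 and Rnf128, a ubiquitin ligase, by 3.90 ± 0.32. The atypical cadherin Fat3 rose by 3.90 ± 0.24, and the changes of its other probe sets ranged from 2.25 to 5.03. Lipf, a lipase known from the stomach, rose by 3.73 ± 0.41, from 6.09, 5.66 and 7.15 to 10.22, 9.52, 10.14 and 10.27. The probe set of Olfr111, an olfactory receptor of a family with close copies, rose by 3.87 ± 0.29. Slc37a2, a sugar-phosphate transporter of macrophages, rose by 3.32 ± 0.17 with 6.49 as its lowest and 7.18 as its highest chow value and 10.06 to 10.33 on high-fat diet.

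The largest fall was that of Orm3, a member of the orosomucoid family of secreted lipid-binding proteins, which has close copies. Orm3 read 8.61, 8.40 and 8.21 on chow and 5.25, 4.59, 4.56 and 4.42 on high-fat diet (-3.70 ± 0.24, limma adjusted p of 1.84e-07). Cyp2e1, a cytochrome P450 of fat and liver, read 12.77, 12.82 and 12.78 on chow and 10.03, 9.34, 8.85 and 8.95 on high-fat diet (-3.50 ± 0.50, 11.3-fold). The Cyp2e1 values on chow differed by 0.05 at most, while the high-fat arrays spread over more than 1 unit with replicate 1 highest. Cyp2f2, another cytochrome P450, fell by 3.36 ± 0.29, with chow replicate 3 lowest at 8.76 against 9.91 and 10.02. Fam13a, a gene of fat-cell differentiation and fat distribution, fell by 3.16 ± 0.15, and Mogat1, which builds diacylglycerol from monoacylglycerol, by 2.83 ± 0.22. Gsta4, the glutathione transferase that clears the lipid peroxidation product 4-hydroxynonenal, read 9.16, 9.16 and 8.67 on chow and 6.58, 6.55, 6.35 and 6.35 on high-fat diet (-2.54 ± 0.16). Acsm5, an acyl-CoA synthetase, fell by 2.75 ± 0.16, and Asb12, an ankyrin repeat protein, fell by 2.71 ± 0.23. Adgrg2, an adhesion receptor, fell by 2.50 ± 0.17 and Ccl17, a chemokine that draws T helper and regulatory T cells, by 2.49 ± 0.18. Timp4, the fat-cell inhibitor of matrix metalloproteinases, read 11.99, 11.74 and 11.99 against 9.94, 9.49, 9.37 and 9.11 (-2.43 ± 0.15). The largest falls were drawn from genes without overlap between the diets, so its absence there is no result.

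P2rx7 itself is a member of the nucleotide list, but where its probe set lies relative to the targeted stretch is unknown here, and its level is no check of the genotype. P2rx7 read 8.23, 7.90 and 8.04 on chow and 8.90, 9.14, 9.14 and 9.07 on high-fat diet, a rise of 1.00 ± 0.12. Of 14 measured nucleotide receptors, channels and ectoenzymes 7 rose and 2 fell, with a median change of 0.39 beside -0.06 over all genes. P2ry6, a UDP receptor that promotes phagocytosis, read 8.45, 8.23 and 8.61 against 10.06, 10.36, 10.30 and 10.10 (1.78 ± 0.13, limma adjusted p of 5.9e-07). P2ry14, which senses UDP-glucose, rose by 1.17 ± 0.15. Panx1, a channel through which ATP leaves cells, rose by 0.71 ± 0.16. Entpd1 (CD39), which removes phosphates from ATP and ADP, rose by 0.67 ± 0.10, whereas Nt5e (CD73), which makes adenosine from the AMP that results, fell by 1.03 ± 0.26. Nt5e read 7.03, 6.65 and 7.59 on chow and 5.87, 6.00, 6.03 and 6.32 on high-fat diet, so the ectoenzymes that act in sequence moved in opposite directions without overlap. P2rx1, an ATP channel of platelets and smooth muscle, was at -0.52 ± 0.14 (limma adjusted p of 0.0121) and missed the threshold without replicate 3 on chow.

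Of 16 genes of inflammasome sensors, adaptor and caspases 10 rose, all of them at least 1.5-fold, and 1 fell, and the median change was 0.82. Casp1, the caspase that cuts interleukin-1β, read 7.23, 7.21 and 7.16 on chow and 8.71, 8.96, 8.97 and 9.25 on high-fat diet, 3.42-fold higher. Pycard, which encodes the adaptor ASC, read 6.92, 6.68 and 6.90 against 7.98, 8.39, 8.17 and 8.05, 2.49-fold higher. No value overlapped for either gene. Naip2 and Naip5, which recognise bacterial flagellin and secretion-system proteins, rose by 1.43 ± 0.13 and 1.35 ± 0.14, their partner Nlrc4 by 1.40 ± 0.16 and Nlrp1b by 1.14 ± 0.15. The DNA sensor Aim2 read 6.87, 6.79 and 7.02 on chow and 8.03, 8.36, 8.31 and 8.34 on high-fat diet. Nlrp3 read 4.90, 4.79 and 5.14 against 5.27, 5.40, 5.25 and 5.14, a difference of 0.32 ± 0.13 that did not pass (limma adjusted p of 0.0641), though it passed with array weights, in the fit on the knockout arrays alone, and when chow replicate 3 (0.42) or the wild-type high-fat replicate 2 was left out. Its lowest high-fat value equals its highest chow value to the second decimal. Txnip, a thioredoxin inhibitor that binds NLRP3, was the member that fell (-0.27 ± 0.05).

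Among 13 genes of the interleukin-1 family 4 rose and 0 fell, and the median change was -0.03. Il1rn, the receptor antagonist that blocks interleukin-1, was the largest, with 6.31, 5.48 and 6.24 on chow and 8.74, 8.69, 8.53 and 8.76 on high-fat diet (2.67 ± 0.25). The cytokines that caspase-1 cuts did not pass. Il1b read 5.52, 5.43 and 5.40 against 5.37, 5.47, 5.43 and 5.37, and Il18 stayed between 6.02 and 6.27 on all 7 arrays, so both diets overlapped. Il1rap, the shared receptor chain, rose by 0.51 ± 0.09 and the decoy receptor Il1r2 by 0.60 ± 0.18 (limma adjusted p of 0.0208), which missed the threshold without replicate 2 on chow or without replicate 1 or 2 on high-fat diet. Il33, an alarmin of stromal cells, stood at 0.43 ± 0.16 (adjusted p 0.0496 in limma), its diets overlapped, and it lost its call in 17 of 25 alternatives, among them the fits without replicate 2 or 3 on chow, replicate 2, 3 or 4 on high-fat diet, and replicates 1 and 3 of either wild-type group. Without replicate 2 on chow 2 of the 13 interleukin-1 family genes rose, and likewise without replicate 2 on high-fat diet.

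Macrophage genes moved in both directions. In whole tissue, more cells of a type and more RNA per cell cannot be told apart, and this holds for every immune and fat-cell gene here. Of 21 genes of macrophage identity and polarisation 13 rose and 6 fell, with a median change of 0.85. There was no overlap for 18 members, beside 43% of all genes. Adgre1, an adhesion receptor used as the classical mouse macrophage marker, read 9.62, 9.32 and 9.43 on chow and 11.15, 11.56, 11.47 and 11.46 on high-fat diet (1.95 ± 0.13, 3.87-fold). Itgax (CD11c), a marker of the macrophages recruited to obese fat, read 7.51, 6.44 and 7.63 against 10.06, 10.30, 10.31 and 10.21 (3.03 ± 0.33, 8.16-fold). Ms4a7 rose by 2.73 ± 0.17, the Fc receptor Fcgr1 by 2.02 ± 0.18 and Cd68 by 1.95 ± 0.13. Itgam (CD11b) rose by 1.28 ± 0.20 and the growth-factor receptor Csf1r, on which macrophages depend, by 0.88 ± 0.11.

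The 6 members that fell include genes of resident, perivascular and alternatively activated macrophages. Cd163, a haemoglobin scavenger receptor, read 8.89, 8.37 and 8.44 on chow and 7.83, 7.40, 7.37 and 7.36 on high-fat diet (-1.07 ± 0.17). Timd4, a phosphatidylserine receptor of long-lived resident macrophages, read 6.73, 7.05 and 6.70 against 5.73, 5.76, 5.47 and 5.43 (-1.23 ± 0.18). Retnla, a product induced by interleukin-4, read 11.87, 11.72 and 11.89 against 10.72, 9.96, 10.53 and 10.27 (-1.46 ± 0.28). The hyaluronan receptor Lyve1, found on perivascular macrophages and lymphatic vessels, fell by 1.02 ± 0.23. Mrc1 (CD206), which resident macrophages also carry, went the other way, at 10.01, 9.75 and 9.91 on chow and 10.50 to 10.65 on high-fat diet. Thus the fold differences ran from 8.16-fold higher for Itgax to 2.75-fold lower for Retnla in 1 list, with no overlap in any of these genes.

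Genes of lipid-associated macrophages rose in 12 of 17 cases and 1 fell, with a median change of 1.03. Trem2, a lipid receptor needed for this cell state, read 8.18, 7.14 and 8.20 on chow and 10.96, 11.24, 11.19 and 11.00 on high-fat diet (3.26 ± 0.21, 9.57-fold). Gpnmb read 9.89, 8.28 and 9.78 against 12.48, 12.59, 12.62 and 12.66 (3.27 ± 0.34). In both, replicate 2 on chow was more than 1 unit below the other chow arrays and the high-fat arrays agreed closely. Mmp12, the macrophage elastase, showed the same low array, at 9.64, 8.05 and 10.30 against 11.57 to 11.82 (2.34 ± 0.50). Nceh1, which hydrolyses cholesteryl esters, rose by 2.25 ± 0.13, Lipa, the lysosomal acid lipase, by 1.78 ± 0.13, the galectin Lgals3 by 1.72 ± 0.15 and the lipid-droplet coat Plin2 by 0.85 ± 0.06. The fatty acid carrier Cd36 did not pass (0.04 ± 0.08, 12.65 to 12.84 on the 7 arrays), and Apoe, also abundant in fat cells, fell by 0.21 ± 0.06.

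The osteoclast and giant cell list gave 7 rises and 2 falls among 16 genes, with a median change of 0.03. Besides Tm4sf19 and Atp6v0d2, the collagenase Ctsk (cathepsin K) read 8.04, 7.60 and 8.25 on chow and 10.49, 11.01, 10.97 and 11.01 on high-fat diet (2.91 ± 0.22, 7.49-fold). The fusion protein Dcstamp rose by 2.17 ± 0.37 and Tnfrsf11a, the receptor RANK, by 1.79 ± 0.11. Acp5, the acid phosphatase used to stain osteoclasts, fell by 0.70 ± 0.09 from 11.41, 11.63 and 11.53 to 10.98, 10.79, 10.82 and 10.69.

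Lysosomes break down engulfed lipid and protein, and their genes are known to be switched on together by the factors TFEB, TFE3 and MITF, which bind an E-box in the promoter. Of 23 lysosomal genes 20 rose and 0 fell, with a median change of 0.67. There was no overlap between the diets for 22 members, beside 43% of all genes. Gla, the α-galactosidase, read 8.18, 7.79 and 8.24 on chow and 9.89, 10.05, 10.13 and 10.12 on high-fat diet (1.98 ± 0.13, 3.94-fold). Ctss, a cathepsin that trims the class II invariant chain, read 9.61, 9.01 and 9.58 against 11.22, 11.44, 11.36 and 11.61 (2.00 ± 0.20). Gusb, the β-glucuronidase, rose by 1.46 ± 0.11. Ctsd, the aspartic protease cathepsin D, moved less but without overlap, from 12.32, 12.30 and 12.34 to 12.76, 12.79, 12.83 and 12.77 (0.47 ± 0.06), and Tfeb by 0.53 ± 0.10. Of 23 subunits of the V-type proton pump, which acidifies lysosomes, 11 rose and 2 fell, with Atp6v0e2, a subunit of brain and other tissues, at -1.75 ± 0.18.

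Promoter sequence was available from RefSeq (GRCm38.p6) for 14749 of the genes tested, and the 250 bases before the start were searched on both strands for 18 motifs. The motifs described were chosen after their counts were seen, and a match is a description of the letters and not of binding. The E-box form TCACGTG, which contains the shorter CACGTG, was found before 7 of the 19 lysosomal genes with an entry (36.8%) and before 4.5% of all 14749 genes. The 7 were Lamp1, Ctsa, Ctsd, Gla, Glb1, Mcoln1 and Atp6v1a. It was not found before Ctss, Gusb or Lipa, which also rose. It was also found before 3 of 14 clock genes (21.4%) and 2 of 14 cholesterol genes (14.3%), so it is not particular to lysosomal genes. The promoters of Gla and Ctsd are shown because both genes rose and both hold the motif more than once. Capitals mark TCACGTG read on either strand, so that TCACGTGA holds it on both. The Gla promoter lies at chrX:134601006-134601255 and the Ctsd promoter at chr7:142387828-142388077, both on the minus strand and printed 5′ to 3′ towards the gene.
Gla: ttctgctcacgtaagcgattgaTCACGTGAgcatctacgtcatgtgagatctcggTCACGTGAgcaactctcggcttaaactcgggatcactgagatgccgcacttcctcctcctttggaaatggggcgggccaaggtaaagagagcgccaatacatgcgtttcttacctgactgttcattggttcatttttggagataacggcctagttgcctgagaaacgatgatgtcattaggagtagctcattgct
Ctsd: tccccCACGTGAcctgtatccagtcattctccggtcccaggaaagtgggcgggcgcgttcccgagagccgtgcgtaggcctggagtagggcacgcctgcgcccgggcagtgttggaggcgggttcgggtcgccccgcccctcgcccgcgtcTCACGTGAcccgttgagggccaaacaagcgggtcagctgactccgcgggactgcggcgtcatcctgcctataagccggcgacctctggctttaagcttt

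Innate receptors moved with the macrophage genes. Of 18 toll-like receptors and co-receptors 16 rose and 1 fell, with a median change of 0.91. Tlr13, which senses bacterial ribosomal RNA, read 7.47, 6.79 and 7.40 on chow and 9.98, 10.40, 10.25 and 10.30 on high-fat diet (3.02 ± 0.20, 8.09-fold). Cd180 rose by 2.49 ± 0.18, Tlr1 by 2.46 ± 0.17 and Tlr8 by 2.04 ± 0.15. Tlr4, the endotoxin receptor, was smaller at 0.41 ± 0.13 (adjusted p 0.0252 in limma) and missed the threshold without replicate 1 or 3 on chow or replicate 2, 3 or 4 on high-fat diet. The member that fell, the flagellin receptor Tlr5 (-0.45 ± 0.16), missed it without replicate 2 or 3 on chow or replicate 2, 3 or 4 on high-fat diet. All 5 measured subunits of the phagocyte NADPH oxidase, which makes superoxide, rose, and their median change was 1.25. Its catalytic subunit Cybb read 10.02, 9.73 and 10.11 against 11.25, 11.41, 11.44 and 11.46, and Ncf1 without overlap changed least, by 0.86 ± 0.24.

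Complement gave 9 rises and 1 fall among 15 measured genes, 2 of which, the receptor chains Itgam and Itgax, are also in the macrophage list. The receptors C3ar1 and C5ar1 rose by 2.00 ± 0.12 and 1.81 ± 0.13, and the C1q chain C1qc by 1.07 ± 0.11. C2, a protease of the classical pathway, was the fall, from 10.18, 10.38 and 10.07 to 8.57, 8.51, 8.65 and 8.49 (-1.65 ± 0.09, 3.15-fold lower). The C2 arrays of 1 diet differed by 0.31 at most, far less than the diets did. Antigen presentation on MHC class II gave 6 rises and 0 falls of 9 genes, led by Ctss and the thiol reductase Ifi30 (1.64 ± 0.14). The class II chain H2-Aa rose by only 0.33 ± 0.09, and without replicate 2 on chow H2-Aa missed the threshold and 3 of the 9 genes rose.

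Chemokines and their receptors were mixed, with 10 rises and 3 falls among 29 genes. Ccl3, which recruits monocytes, read 7.12, 6.85 and 7.04 on chow and 9.10, 9.99, 9.65 and 9.96 on high-fat diet (2.67 ± 0.26), and Ccl8 read 5.87, 5.26 and 5.67 against 8.46, 8.61, 8.30 and 8.23 (2.80 ± 0.45). Ccl24, an attractant of eosinophils, fell by 1.83 ± 0.21 from 7.94, 8.19 and 8.03 to 6.30, 6.06, 6.14 and 6.40. None of the 3 had overlapping diets. Ccl2, the main monocyte attractant of obese fat, read 8.52, 9.18 and 8.86 against 9.46, 9.27, 9.22 and 9.35 and did not pass (0.47 ± 0.20, limma adjusted p of 0.0859), though it passed in the fit on the knockout arrays alone and when chow replicate 2 (0.64) or the wild-type high-fat replicate 1 or 3 was left out. The Ccl2 receptor Ccr2 was at 0.00 ± 0.21. Without replicate 1 on chow 1 chemokine fell in place of 3.

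The list of TNF, interleukin and growth factor signals held 10 rises and 4 falls among 23 genes. Tnf read 5.78, 6.16 and 6.19 on chow and 7.11, 7.38, 7.31 and 7.12 on high-fat diet (1.19 ± 0.18), and the anti-inflammatory Il10 rose beside it, by 1.26 ± 0.16. Il7r, the interleukin-7 receptor known from lymphocytes, read 8.03, 6.81 and 7.60 against 10.67, 10.77, 10.87 and 10.86 (3.31 ± 0.25, 9.92-fold). Its chow values were the lowest in replicate 2, and the diets did not overlap. Tgfb1 rose by 1.01 ± 0.11, and Il6 stayed at 2.75 to 3.06 on the 7 arrays. Csf1, the growth factor that binds Csf1r, fell by 0.37 ± 0.10.

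Interferon-stimulated genes numbered 2 rises and 2 falls of 19, with a median change of -0.17. Both shares are below the 14.5% and 19.7% over all genes, so the count is no result about the list. The mean of the list was 8.00 in replicate 1 on chow and 7.24 and 7.07 in the other 2 chow arrays, against 7.31 to 7.42 on high-fat diet. Without that chow array 6 interferon-stimulated genes rose. Oasl1 read 7.36, 6.71 and 6.43 against 7.74, 7.86, 7.73 and 7.91 (0.98 ± 0.17), and Gbp2 was at -0.63 ± 0.16, or -0.38 without replicate 1 on chow.

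The enzymes of prostaglandins and leukotrienes moved both ways, with 4 rises and 6 falls of 15. Hpgds, the haematopoietic prostaglandin D synthase, read 7.01, 7.22 and 7.32 on chow and 10.12, 10.63, 10.59 and 10.77 on high-fat diet (3.35 ± 0.18, 10.2-fold). Ptges, which makes prostaglandin E2, fell by 1.2 ± 0.14 from 9.71, 9.92 and 9.69 to 8.49, 8.68, 8.72 and 8.42, and Ptgis, the prostacyclin synthase, fell by 0.79 ± 0.14. Thus the branch enzymes for prostaglandin D and for prostaglandins E and I moved in opposite directions, each without overlap. Alox15, a lipoxygenase of eosinophils and resident macrophages, fell by 1.39 ± 0.19.

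**Figure D2:**
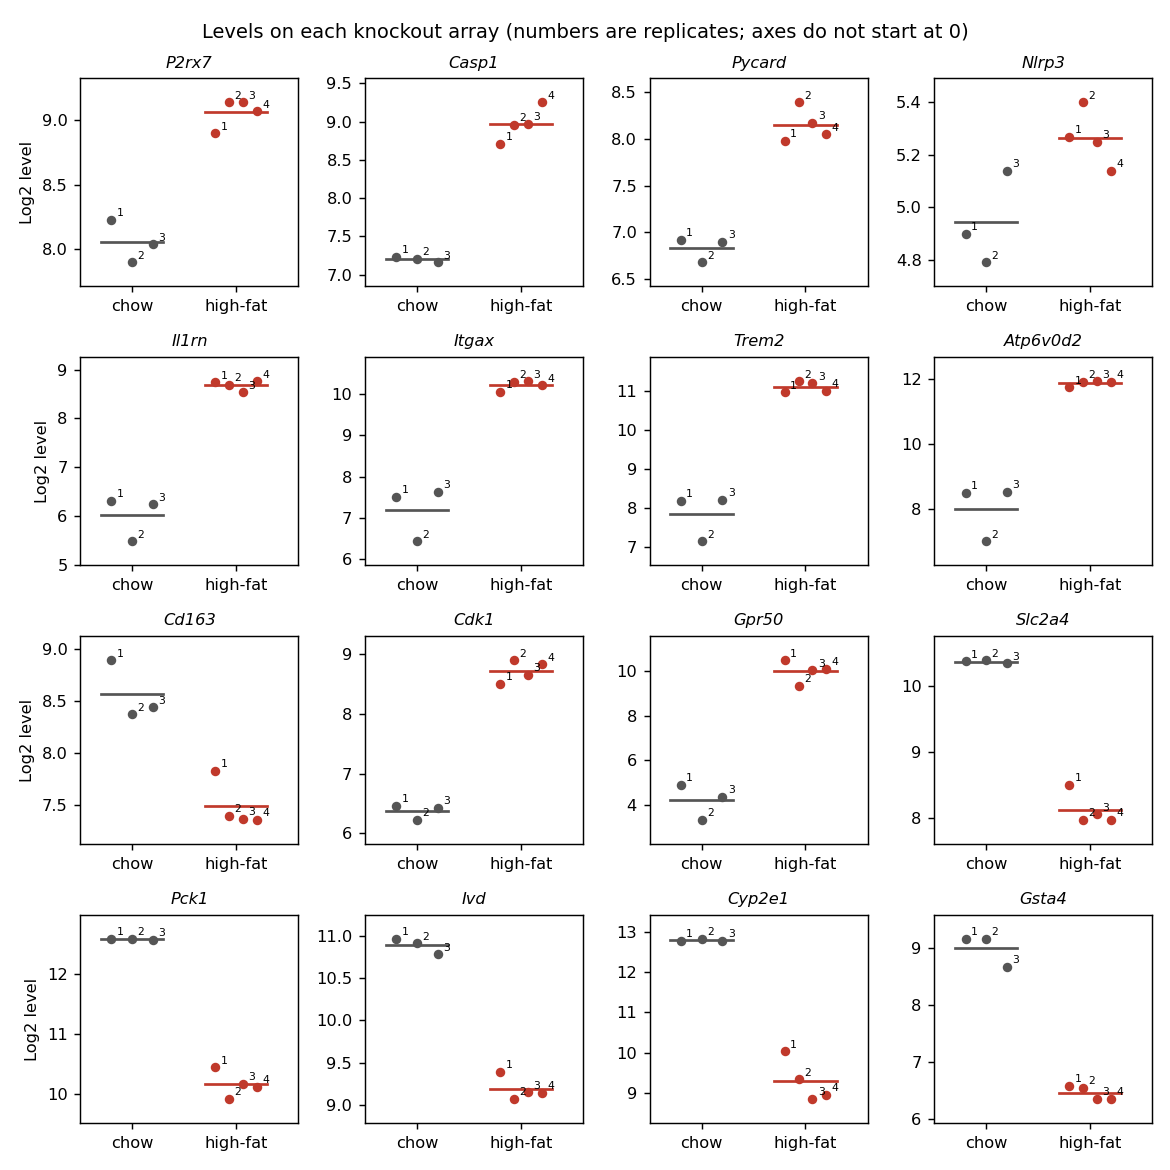
Log2 level of 16 genes on each knockout array, with 3 chow arrays and 4 high-fat arrays as points numbered by replicate and the group means as lines. Nlrp3 is the gene whose diets touch, Itgax, Trem2 and Atp6v0d2 show the low chow array of replicate 2, and Slc2a4 and Cyp2e1 show the high-fat array of replicate 1 above the others.

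All 20 measured genes of cell division rose, with a median change of 1.90. None overlapped between the diets, and neither did 43% of all genes. Cdk1, the kinase that starts mitosis, read 6.46, 6.22 and 6.43 on chow and 8.50, 8.90, 8.65 and 8.83 on high-fat diet (2.35 ± 0.14, 5.08-fold). Mki67, the proliferation marker Ki-67, read 6.84, 6.67 and 6.67 against 8.65, 9.12, 8.88 and 8.71 (2.11 ± 0.14), and the cyclin Ccna2 rose by 2.23 ± 0.13. Rrm2, a subunit of ribonucleotide reductase, rose by 2.10 ± 0.16 and the replication helicase subunit Mcm5 by 1.41 ± 0.12, and all 6 subunits of that helicase rose. In 14 of 35 kinesins, the motors that include those of the spindle, levels rose, and 4 fell. Replicate 2 on high-fat diet had the highest list mean, 8.24 against 7.81 to 8.02 on the others. Probe sets of 1 gene disagreed for some of these genes: Kif11 was at 2.05 with the probe set used and at 0.53 with another, and Prc1 at 2.08 and 0.05.

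Genes of mitosis are known to share CCAAT boxes, which the factor NF-Y binds, in their promoters. CCAAT was found in the 250 bases before 15 of the 17 cell division genes with an entry (88.2%) and before 39.1% of all 14749 genes. It was also found before 12 of 14 cholesterol genes (85.7%), so it is not particular to cell division. The motif TTTGAA, which does not overlap it, was found before 8 of the 17 (47.1%) and before 15.7% of all genes. The promoters of Cdk1 and Ccnb2 are shown as examples with 3 CCAAT boxes each, and capitals mark CCAAT or, for the other strand, ATTGG. They lie on the minus strand at chr10:69352913-69353162 and chr9:70421555-70421804.
Cdk1: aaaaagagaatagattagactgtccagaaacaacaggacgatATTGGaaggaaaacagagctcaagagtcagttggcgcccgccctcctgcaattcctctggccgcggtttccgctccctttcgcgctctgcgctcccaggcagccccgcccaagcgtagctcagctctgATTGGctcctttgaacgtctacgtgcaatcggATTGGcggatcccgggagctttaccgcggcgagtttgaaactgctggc
Ccnb2: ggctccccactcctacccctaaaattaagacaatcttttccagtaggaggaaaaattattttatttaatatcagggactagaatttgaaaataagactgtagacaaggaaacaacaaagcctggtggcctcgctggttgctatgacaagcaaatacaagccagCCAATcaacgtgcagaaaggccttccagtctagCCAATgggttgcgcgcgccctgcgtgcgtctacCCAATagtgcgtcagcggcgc

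Matrix genes rose in a smaller share. Of 25 collagens and matrix proteins 12 rose and 1 fell, with a median change of 0.34. Col6a3, a microfibrillar collagen chain of fat, read 9.12, 9.20 and 8.97 on chow and 10.07, 10.07, 10.10 and 10.04 on high-fat diet (0.97 ± 0.08). Lumican (Lum), a proteoglycan that spaces collagen fibrils, read 9.38, 9.37 and 9.42 against 10.82, 10.98, 11.25 and 11.32 (1.7 ± 0.12), and Col1a1 rose by 1.01 ± 0.11 and Col12a1 by 1.46 ± 0.17. All 4 stood clear of their chow values. Col6a5, a chain outside that list, read 8.70, 8.91 and 9.42 against 10.41, 10.95, 10.87 and 11.04 (1.81 ± 0.37) beside 0.29 in wild-type mice, and the interaction did not pass (limma adjusted p of 0.41). Proteases and inhibitors gave 13 rises and 5 falls of 21. The sheddase Adam8 rose by 2.91 ± 0.25, the stromelysin Mmp3 by 2.18 ± 0.32, the membrane-bound protease Mmp14 by 1.30 ± 0.14 and the urokinase Plau by 1.55 ± 0.13. Their inhibitors split, with Timp1 higher by 1.96 ± 0.28 and Timp3 and Timp4 lower by the log2 differences -0.70 ± 0.09 and -2.43 ± 0.15. Of the TGF-β family, 4 of 18 rose and 5 fell, beside 14.5% and 19.7% of all genes. The receptor Acvr1c of fat cells was at -1.53 ± 0.20, Bmp6 at -1.04 ± 0.16 and Gdf3 at 1.48 ± 0.29.

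Fat-cell genes fell. Of 22 genes of adipocyte identity and adipokines 1 rose and 13 fell, with a median change of -0.42. Slc2a4, the insulin-responsive glucose transporter GLUT4, read 10.38, 10.40 and 10.35 on chow and 8.51, 7.97, 8.06 and 7.97 on high-fat diet (-2.25 ± 0.20, 4.76-fold lower). Retn, which encodes resistin, fell by 1.07 ± 0.11 and Nnat by 1.43 ± 0.14, while the master regulators Pparg and Cebpa fell by 0.51 ± 0.08 and 0.98 ± 0.11. Adipoq was lower by 1.53-fold. The leptin gene Lep was the rise, from 11.70, 11.53 and 11.97 to 12.20, 11.87, 12.00 and 12.04. Its diets overlapped, its change of 0.29 ± 0.11 just passed (adjusted p 0.0471 in limma), and it stood at 0.20 without replicate 2 on chow. Lep missed the threshold with centred arrays, without the intensity trend, in the fit on the knockout arrays alone, and without any 1 array other than chow replicate 3, high-fat replicate 2 and the wild-type high-fat replicates 2 and 3. The adipogenic and nuclear receptor list gave 1 rise and 11 falls of 21, led by Klf15, a glucocorticoid-induced activator of fat-cell genes, at -1.88 ± 0.17.

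Insulin signalling fell in 13 of 19 genes and rose in 2. The receptor Insr read 10.16, 10.13 and 10.20 on chow and 9.55, 9.25, 9.43 and 9.75 on high-fat diet (-0.67 ± 0.11). The substrates Irs1 and Irs2, which carry its signal, fell by 1.46 ± 0.11 and 1.2 ± 0.13, Pde3b, through which insulin restrains lipolysis, by 1.17 ± 0.14, the hexokinase Hk2 by 1.09 ± 0.13 and the kinase Akt2 by 0.54 ± 0.13. Ptpn1, a phosphatase that removes phosphate from the receptor, rose by 0.56 ± 0.10. Genes from receptor to transporter fell, with no overlap between the diets in any gene named. The other rise, the adaptor Grb14 (0.74 ± 0.26), stood at 0.50 without replicate 1 on chow. Grb14 missed the threshold there, without replicate 2 on chow, without replicate 1, 3 or 4 on high-fat diet and without replicate 3 of either wild-type group.

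Among genes of lipid storage and release falls outnumbered rises. These are transcript levels, and the rates of storage and release were not measured. Of 15 genes of lipolysis and lipid droplets 2 rose and 8 fell, with the triglyceride lipase Pnpla2 (ATGL) at -0.72 ± 0.10, the hormone-sensitive lipase Lipe at -0.68 ± 0.10 and the droplet coat Plin1 at -0.66 ± 0.08. Of 14 genes of triglyceride synthesis 1 rose and 9 fell. Pck1, which makes the glycerol backbone, read 12.58, 12.58 and 12.57 on chow and 10.44, 9.91, 10.16 and 10.11 on high-fat diet (-2.42 ± 0.14, 5.36-fold lower). The rise was Pdk4, a brake on pyruvate oxidation (1.14 ± 0.21). De novo lipogenesis gave 2 rises and 10 falls of 22. The carboxylases Acaca and Acacb fell by 1.42 ± 0.23 and 1.32 ± 0.18, the regulator Mlxipl (ChREBP) by 1.13 ± 0.14 and Thrsp by 1.88 ± 0.25. The defining gene Acly did not pass in the main fit or any alternative (-0.75 to -0.28). Fasn, also defining, fell, at -0.64 to -0.42 over the alternatives, and lost its call in 6 of 25. With a minimum change of 1.2-fold in limma 6 of the 22 genes fell. Elovl3, an elongase known from brown fat, went up, from 3.63, 3.77 and 4.10 to 7.26, 5.88, 6.72 and 6.60 (2.78 ± 0.36).

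Genes of cholesterol synthesis, uptake and efflux gave 11 rises and 1 fall of 18 and a median change of 0.47. Dhcr7, the enzyme of the last step of synthesis, read 7.47, 7.67 and 7.60 on chow and 9.27, 8.82, 8.92 and 8.69 on high-fat diet (1.35 ± 0.12). Insig1, a sterol-sensitive brake on the pathway, rose by 0.95 ± 0.17, Msmo1 by 0.90 ± 0.14 and the exporter Abcg1 by 0.87 ± 0.12, and squalene synthase (Fdft1) fell by 0.91 ± 0.14. The exporter Abca1, a defining member, did not pass (-0.08 to 0.04 over the alternatives). Without replicate 1 on chow 6 of these 18 genes rose, and with a minimum change of 1.2-fold in limma 4 did. Lipid uptake and handling gave 6 rises and 4 falls of 16, with a median change of -0.02. The scavenger receptors Olr1 and Msr1, which macrophages use for modified lipoproteins, rose by 1.82 ± 0.17 and 1.81 ± 0.19, and Apoc1 fell by 1.05 ± 0.18.

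The breakdown pathway for leucine, isoleucine and valine had 19 falls among 21 genes, with a median change of -0.90. There was no overlap for 20 members, beside 43% of all genes. Ivd, which oxidises isovaleryl-CoA from leucine, read 10.96, 10.91 and 10.78 on chow and 9.39, 9.07, 9.15 and 9.14 on high-fat diet (-1.7 ± 0.12, 3.25-fold lower). The mitochondrial transaminase Bcat2 fell by 1.18 ± 0.08, Bckdha of the rate-setting dehydrogenase by 1.07 ± 0.10 and Aldh6a1 of valine breakdown by 1.27 ± 0.12. The cytosolic transaminase Bcat1, which macrophages express, was the only member of the list to rise, from 6.80, 6.92 and 7.02 to 7.78, 8.04, 7.76 and 7.53 (0.86 ± 0.11). The transaminases of the 2 compartments thus moved in opposite directions.

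Other mitochondrial genes fell by less. Of 29 genes of the respiratory chain and TCA cycle 0 rose and 19 fell, with a median change of -0.26. With a minimum change of 1.2-fold in limma 3 of the 29 fell. The largest fall was that of Ndufb8, which read 9.61, 9.62 and 9.70 on chow and 8.98, 8.97, 9.02 and 8.87 on high-fat diet (-0.69 ± 0.08). The defining members Cox5a (-0.06 to 0.04 over the alternatives) and Cs (-0.19 to -0.13) did not pass. Of 36 complex I subunits 23 fell and 0 rose, and of 74 mitochondrial ribosomal proteins 30 fell and 1 rose. Cytosolic ribosomal proteins went the other way, with 22 rises and 0 falls of 71 and a median change of 0.10. Fatty acid oxidation gave 1 rise, the carnitine transferase Cpt1a (0.45 ± 0.06), and 10 falls of 21, among them its regulator, the receptor Ppara (-0.86 ± 0.18). With the 1.2-fold minimum 3 of the 21 fell. Of 14 thermogenic genes 2 rose and 1 fell. These shares are near or below the 14.5% and 19.7% over all genes, so the count is no result about the list. Otop1, a proton channel, read 5.40, 5.57 and 5.7 against 8.83, 8.25, 8.37 and 8.34 (2.89 ± 0.24), whereas Ucp1, the uncoupling protein of brown fat, stayed at 3.66 to 4.26 and did not pass (0.32 ± 0.14). Ucp1 passed with array weights, with the replicate number as a block, in the fit on the knockout arrays alone and without the wild-type high-fat replicate 1.

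Glutathione transferases fell in 15 of 17 cases and 1 rose, with a median change of -0.78. Gsta3 fell by 2.09 ± 0.12 and Gstt1 by 1.25 ± 0.11, and Gsto1 was the rise at 0.36 ± 0.07. In the wider list of oxidant defence 12 of 24 fell and 1 rose, the haem oxygenase Hmox1, from 8.88, 8.63 and 9.21 to 10.25, 10.34, 10.36 and 10.40 (1.43 ± 0.15). Of 20 genes of iron and haem handling 8 rose and 5 fell. Slc11a1, which exports iron from the phagosome, rose by 1.53 ± 0.15, lipocalin-2 (Lcn2), which binds bacterial iron carriers, by 1.56 ± 0.28, and ceruloplasmin (Cp) fell by 0.79 ± 0.13. Hemopexin (Hpx), a haem-binding plasma protein, read 5.62, 5.08 and 5.56 on chow and 8.35, 7.03, 7.55 and 8.02 on high-fat diet (2.31 ± 0.31, 4.98-fold). Hpx was the 1 member of the liver list to rise. The 3 defining liver genes did not pass: albumin (Alb) was at -0.61 (limma adjusted p of 0.47), and the list mean was 5.36 to 5.41 on chow and 5.01 to 5.89 on high-fat diet. With the liver mean as a covariate 2794 genes rose and 3792 fell.

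Among 19 genes of the unfolded protein and integrated stress responses 2 rose and 4 fell, with a median change of 0.01. These shares are near the 14.5% and 19.7% over all genes, so the count is no result about the list. Atf3, an immediate stress factor, read 8.85, 8.70 and 8.75 on chow and 11.13, 11.31, 11.25 and 11.28 on high-fat diet (2.48 ± 0.15), asparagine synthetase (Asns) fell by 1.12 ± 0.09 and the chaperone Hspa5 (BiP) was at 0.10 ± 0.08. Without replicate 1 on chow 4 of the unfolded protein and integrated stress response genes rose and 2 fell. In glycolysis and hypoxia 6 rose and 5 fell of 21. Vegfa, the vessel growth factor, fell by 1.41 ± 0.18, and Car9, a hypoxia-induced carbonic anhydrase, rose by 1.38 ± 0.15. Hk3, a hexokinase of myeloid cells, rose by 2.33 ± 0.20 from 5.93, 5.49 and 6.12 to 8.02, 8.25, 8.30 and 8.15, against the fall of Hk2, the hexokinase of insulin-responsive tissue. Clock genes gave 3 rises and 8 falls of 16, with Npas2 and Arntl of the activating arm at 1.00 ± 0.17 and 0.74 ± 0.15 and Per3, Cry2 and Per2 of the repressing arm at -0.78 ± 0.13, -0.87 ± 0.11 and -0.81 ± 0.17. The hour of tissue collection is not given in the labels, and its part in the clock genes was not tested. Of 21 Wnt genes 2 rose and 6 fell, beside 14.5% and 19.7% of all genes. Wnt2b was at -1.17 ± 0.29 and the target Axin2 at -0.85 ± 0.11.

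**Figure D3:**
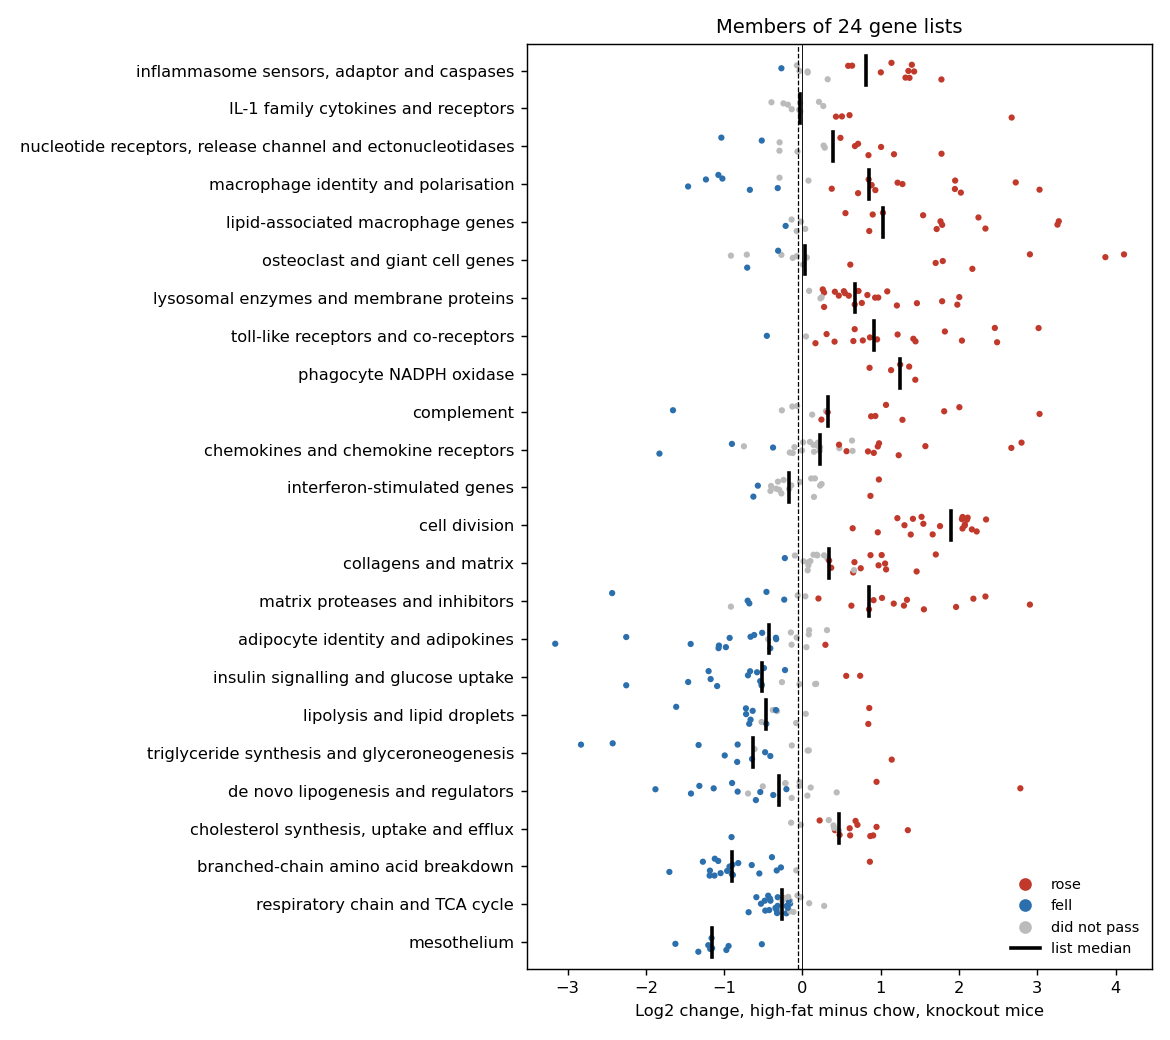
Log2 change on high-fat diet in knockout mice for each measured member of 24 gene lists (points, coloured by whether the gene rose, fell or did not pass) with the list median as a bar, and all 18820 genes at -0.06 as a dashed line. Cell division has every member above 0, and breakdown of branched-chain amino acids has 19 of 21 members among the falls.

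Markers of other cells were counted the same way. Of 9 T-cell genes 0 rose and 0 fell in limma, and 1 had an unadjusted p under 0.05, while of 9 natural killer genes 0 rose, 0 fell and 0 had an unadjusted p under 0.05. Replicate 2 on high-fat diet stood above the other 3 high-fat arrays in lymphocyte genes, with Cd3e of T cells at 7.11 against 5.84 to 5.92 and Cd4 at 6.59 against 5.39 to 5.52. The B-cell list had a mean of 7.21 on that array and of 5.56 to 5.96 on the others. Of 10 B-cell genes 3 rose, but the defining gene Ms4a1 (CD20) did not pass, at 5.17, 6.63 and 6.38 on chow and 5.30, 7.85, 5.55 and 6.30 on high-fat diet. The immunoglobulin chain Ighm read 6.17, 5.48 and 5.47 against 6.56, 8.72, 6.57 and 6.56 (1.39 ± 0.45), or 0.85 without the high-fat replicate 2, and it missed the threshold without replicate 2 or 3 on chow. Its other probe set was at 0.60, and the call was also lost with that probe set, with the mean of both and in the fit on the knockout arrays alone. Jchain, which joins secreted antibodies, rose by 1.95 ± 0.41 from 6.94, 5.72 and 6.52 to 7.44, 9.50, 8.15 and 8.29. Cd22, an inhibitory receptor of B cells, rose by 1.32 ± 0.20 without overlap, and replicate 2 was again highest, at 7.79 against 7.02 to 7.19 on the other high-fat arrays.

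**Figure D4:**
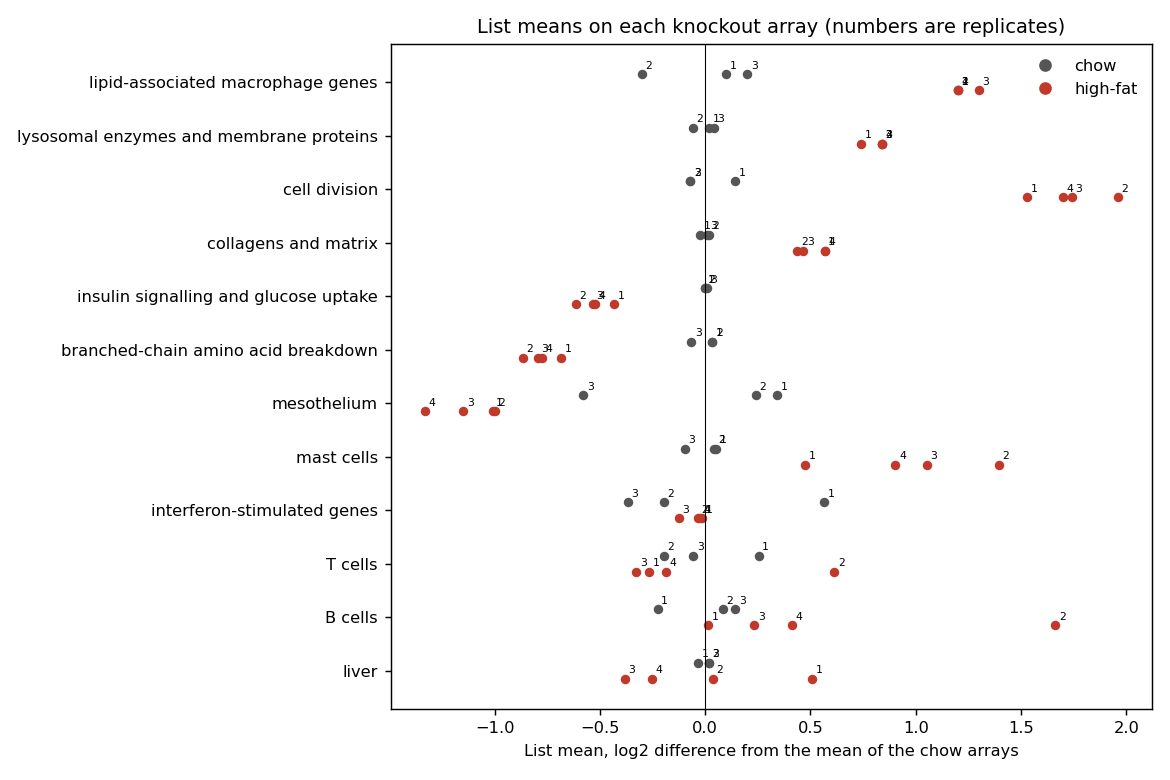
Mean log2 level of 12 gene lists on each of the 7 knockout arrays, given as the difference from the mean of the 3 chow arrays, with points numbered by replicate. Replicate 2 on high-fat diet stands apart in the B-cell and T-cell lists, and replicate 1 on chow in the interferon list.

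The mast cell list had 8 rises and 0 falls among 11 genes, with a median change of 1.24. Cpa3, a mast cell carboxypeptidase, read 8.19, 8.23 and 7.84 on chow and 9.18, 10.51, 10.10 and 9.85 on high-fat diet (1.82 ± 0.42), and the chymase Mcpt4 rose by 1.83 ± 0.45. The receptor Kit, which other cells also carry, did not pass (-0.16 ± 0.13), and without replicate 3 on chow 5 mast cell genes rose. Among 7 eosinophil genes there were 3 falls and 0 rises. The largest, the ribonuclease Rnase2a, read 7.01, 6.32 and 6.91 against 3.97, 3.43, 3.81 and 3.44, without overlap (-3.09 ± 1.04, adjusted p 0.0341 in limma). The estimate of spread is shared with the wild-type arrays, on which Rnase2a ranged from 6.08 to 10.80 on chow, and the fall missed the threshold without any 1 of the 7 knockout arrays. The eosinophil marker Siglecf fell by 0.46 ± 0.13, and without replicate 1 on chow it missed the threshold and 1 of the eosinophil genes fell.

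Mesothelial genes, of the cell layer that covers the depot, fell in 9 of 9 cases, with a median change of -1.16. There was no overlap for any of the 9, beside 43% of all genes. Upk3b read 11.30, 11.21 and 10.54 on chow and 9.94, 9.92, 9.80 and 9.59 on high-fat diet (-1.2 ± 0.28), and Krt19 read 9.32, 9.20 and 8.17 against 7.36, 7.60, 7.30 and 6.83 (-1.62 ± 0.31). Replicate 3 on chow was the lowest chow array in both, and without replicate 1 on chow 4 of the 9 mesothelium genes fell. Endothelial genes fell in 4 of 12 cases, with Robo4 at -0.87 ± 0.14 and the VEGF receptor Kdr at -0.75 ± 0.17, while the pan-endothelial Pecam1 and Cdh5 did not pass. Fibroblast genes gave 4 rises and 2 falls of 9, with Fap, a marker of activated fibroblasts, at 0.99 ± 0.10 and Pdgfra at 0.40 ± 0.10. Of 11 skeletal muscle genes the parvalbumin gene Pvalb rose by 3.00 ± 0.22, from 4.23, 4.03 and 4.45 to 7.61, 6.90, 7.29 and 7.15. The defining muscle gene Myh4 stayed at 3.52 to 3.95, and Acta1 fell by 0.94 ± 0.17.

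The response of knockout mice was set beside that of wild-type mice on the same diets, where 3327 genes rose (17.7%) and 3409 fell (18.1%). The rises shared by both genotypes numbered 2315, which is 85.1% of the knockout and 69.6% of the wild-type rises, and the shared falls 2545, or 68.6% and 74.7%. Calls of opposite direction were 1 and 4. Among the 707 genes at least 2-fold higher in knockout mice, 704 had the same sign in wild-type mice and 686 passed there. For 526 of these 707 the wild-type change was the larger, beside 8588 of all 18820 genes. Medians were 1.45 in knockout and 1.63 in wild-type mice, and no gene among the 707 passed the interaction. Of the 355 genes at least 2-fold lower all had the same sign, 349 passed and 222 fell further in wild-type mice.

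**Figure D5:**
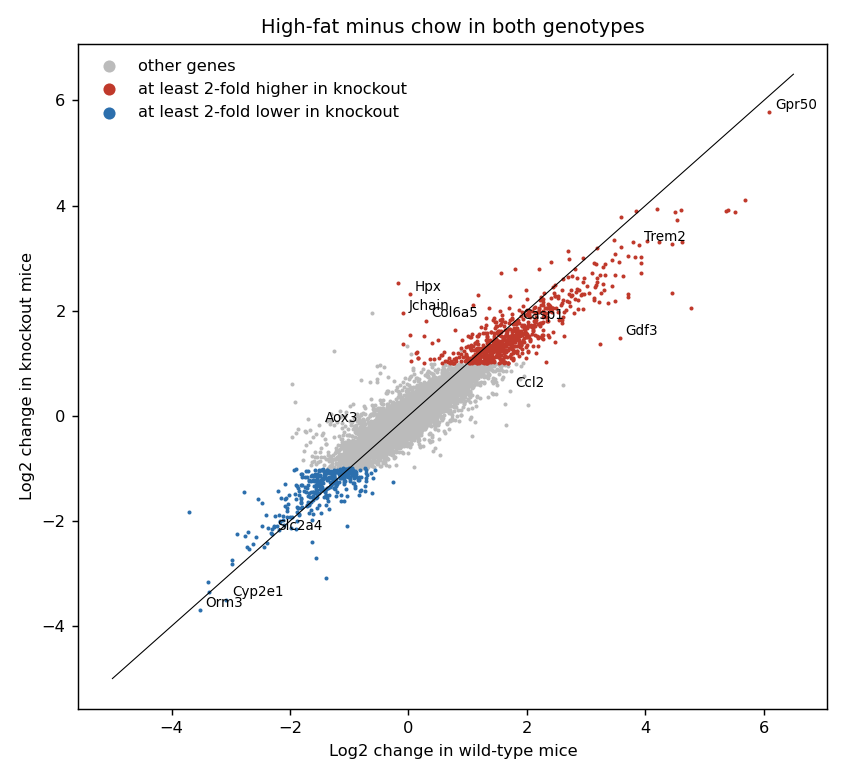
Log2 change on high-fat diet in wild-type mice (3 against 3 arrays, horizontal axis) and in knockout mice (4 against 3 arrays, vertical axis) for 18820 genes, with the line of equal change and some of the genes named in the text. The genes at least 2-fold changed in knockout mice are in colour, and 704 of 707 rises and 355 of 355 falls have the same sign on both axes.

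The difference between the 2 responses was tested gene by gene as the diet-by-genotype interaction in limma. It was passed by 0 of 18820 genes, while 1829 (9.72%) had an unadjusted p under 0.05. When the wild-type high-fat replicate 2 was left out 106 genes passed, and between 0 and 4 did in each of the other alternatives that held wild-type arrays. The 4 genes with the smallest p were Aox3, Cyp39a1, Adamtsl1 and Mir181b-2. Aox3, an aldehyde oxidase, changed by -0.18 in knockout and -1.51 in wild-type mice (limma adjusted p of the interaction 0.0783), and Adamtsl1 by -0.09 and -0.99 (0.145). Other genes described here had unlike changes that did not pass as a difference. Hpx changed by 2.31 in knockout and by 0.02 in wild-type mice (0.24), Jchain by 1.95 and -0.09 (0.355), Gdf3 by 1.48 and 3.57 (0.251) and Ccl2 by 0.47 and 1.71 (0.318). The wild-type arrays differed in liver genes: their list mean was 7.32, 6.69 and 6.45 on chow and 5.67, 6.57 and 5.23 on high-fat diet. It was 5.36 to 5.41 on knockout chow. In wild-type mice 10 of the 16 liver genes fell. The part of liver transcripts in the unlike changes of these genes was not tested. Slc2a4 changed by -2.25 and -2.31 and Casp1 by 1.78 and 1.82, with interactions of 0.06 ± 0.29 and -0.05 ± 0.19.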

How the data were processed

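RNA from epididymal fat was hybridised to 13 Affymetrix arrays. The authors deposited log2 values made by RMA, per the submitters' processing notes, with the version not given in the sources used here. RMA quantile-normalizes the arrays, so a shift of most genes in one direction would be reduced. Of 35556 probe sets, 21218 named 1 gene, 1881 several and 12457 none. The 21218 gave 18820 genes, each read by its probe set with the highest mean. limma 3.58.1 (R 4.3.3) fitted 4 group means over the 13 arrays with an intensity trend, and p-values were adjusted over all genes by Benjamini-Hochberg. A gene rose or fell where its adjusted p was under 0.05. The number of arrays limits the precision. The members and gene lists were chosen with earlier results of these data known, so a list's count is no independent evidence of its direction. List entries were matched by symbol, and 4 by an older symbol. Genes named were drawn from P2rx7, Nlrp3, Pycard, Casp1, Il1b and Il18, the 12 largest non-overlapping rises and falls, the defining members of each list with up to 4 of its largest rises and falls, the extremes of gene families, and the 4 smallest interaction p-values. Ccnb2 and the other promoter examples were chosen after their motif counts were seen. The fit was tested on simulated data of 18820 genes: for the diet in knockout mice it recovered 79% of 1.5-fold and 92% of 2-fold changes. For the interaction it recovered 45% and 82%. False calls made up 5.52% of the calls for the diet and 7.97% of those for the interaction. Only 200 genes were changed in the simulation, with independent noise, so these shares do not give the power in the real data. Same-numbered arrays showed no clear shared deviation, but the pairs were too few to settle whether the numbers pair the arrays. Alternatives changed normalization, probe set choice, fit and arrays. Promoters came from RefSeq (GRCm38.p6).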

Additional observations from a re-analysis of the deposited data

Results flagged for a closer look

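Among the 220 genes described, 23 had 1 of the 4 high-fat knockout arrays far from the other 3 by Dixon's test, and chance alone sets an array apart in about 1 group in 20. Of all 417 named genes tested 31 had such an array. The genes share the same arrays, so they are not independent tests. Among the 23 the array was replicate 1 for 13, replicate 2 for 5 and replicate 4 for 5. Each log2 level below is that of the array apart, beside the range of the other 3.

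Replicate 1 was lowest for C3ar1 (11.86 against 12.04 to 12.07), Fat3 (8.40 against 8.99 to 9.08), Ctsk (10.49 against 10.97 to 11.01), Tm4sf19 (10.89 against 11.02 to 11.04), Aim2 (8.03 against 8.31 to 8.36), Msr1 (9.13 against 9.51 to 9.54), Atp6v0d2 (11.75 against 11.92 to 11.94), Csf1r (10.97 against 11.14 to 11.17), Entpd1 (10.17 against 10.28 to 10.29) and Tlr4 (8.31 against 8.53 to 8.55). It was highest for Slc2a4 (8.51 against 7.97 to 8.06), Cd163 (7.83 against 7.36 to 7.40) and Cdh5 (11.15 against 10.90 to 10.94). For the 12 of these 13 genes that passed, replicate 1 lay on the side of the chow arrays. Cdh5 did not pass, but its change was negative (-0.22 to -0.10 over the alternatives), so replicate 1 lay on that side there too.

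Replicate 2 was highest for the lymphocyte genes Ighm (8.72 against 6.56 to 6.57), Cd3e (7.11 against 5.84 to 5.92) and Cd4 (6.59 against 5.39 to 5.52). It was lowest for Asns (9.97 against 10.18 to 10.20) and Fdft1 (9.16 against 9.31 to 9.33). Replicate 4 was lowest for Bcat2 (9.38 against 9.61 to 9.65) and highest for Fap (7.69 against 7.51 to 7.53), Msmo1 (9.96 against 9.48 to 9.54), Txnip (12.36 against 12.25 to 12.26) and Hspa5 (11.76 against 11.61 to 11.63). Why these arrays stand apart was not tested.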

How the results depend on the processing

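Over 25 alternatives, none of the 363 genes that passed among the 417 named ones changed sign. Among the lists, the unfolded protein and integrated stress response turned from 2 rises and 4 falls to 4 and 2 without chow replicate 1 of the knockout mice, and to 5 and 4 with array weights, and glycolysis and hypoxia from 6 and 5 to 2 and 3 with the 1.2-fold minimum below. The rises in knockout mice numbered 2457 with the replicate number as a block, 3114 with array weights, 2612 after centring arrays on their medians and 2821 after a second quantile normalization, and the falls 3140, 4538, 3864 and 3548. A minimum change of 1.2-fold (limma's treat) left 1314 rises and 1136 falls, and 96 named genes lost their call. Leaving out 1 array gave 2215 to 2812 rises and 2890 to 3840 falls, both lowest without chow replicate 2 of the knockout mice. The interaction was passed by 2 genes without the intensity trend, 1 with centred arrays, 1 with array weights and 0 to 106 with 1 array left out, and the cause was not tested. Same-numbered arrays had correlations of -0.09, -0.03 and 0.04 in their deviations, and arrays of unlike number -0.132 to 0.155. So few pairs cannot settle whether the numbers pair the arrays. The block left the interaction at 0. Under it 22 named genes lost their call, among them Il33, Lep, Grb14, Tlr4, Tlr5 and Rnase2a, and 2 gained one, among them Ucp1. The median change over all genes lay between -0.06 and -0.03 under the scalings tried. Signal near the bottom of the scale limits genes such as Ucp1 and Il6.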
